A study of Mus musculus with 4 samples.

Results

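Grb10, Ddc and Cobl are 3 neighbouring genes of proximal mouse chromosome 11, chosen by symbol from the 26130 genes listed in each of the 2 deposited tables. All 3 were found once in each table and all 3 passed the filter of 1 read per 1000000 library reads (RPM) in either library of a line. They were chosen with their differences between knockout and wild type known, so those differences are given as a description, with no test. RNA was measured in 4 libraries of embryonic stem cells, wild type and Zfp57-/- of each of 2 lines. The line E14 is of strain 129P2/OlaHsd, and for JB1 the strain is given as JF1/B6. Pairs of values below give the wild-type library of a line first and its knockout library after it. All cells were grown on gelatin without feeder cells, in serum with leukemia inhibitory factor. The labels give no drug, dose or time, and they do not say how many clones stand behind a knockout line.

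ZFP57 is a zinc finger repressor that recognises the methylated copy of imprinting control regions and maintains its methylation. At Grb10 the control region carries methylation from the egg. In mouse, Grb10 is read from the maternal copy in most tissues and from the paternal copy in neurons, where other promoters are used. It encodes an adaptor that binds the insulin and IGF1 receptors and restrains growth. Ddc, which encodes aromatic L-amino acid decarboxylase, the enzyme that makes dopamine and serotonin from their precursors, is paternally biased in mouse embryonic heart. Cobl, which encodes the actin nucleator cordon-bleu, has been described as maternally biased in mouse yolk sac.

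The promoters RefSeq gives for the genes that went in opposite directions are shown to set their base composition side by side. Each run is 300 bases, from 250 before to 50 after an annotated start, written 5′ to 3′ on the strand of the gene (minus, GRCm38.p6, a later build than the mm9 of the deposited tables). Capitals mark TGCCGC, the motif ZFP57 is known to bind when methylated, or its reverse complement GCGGCA.
Grb10 upstream promoter (chr11:12037371-12037670): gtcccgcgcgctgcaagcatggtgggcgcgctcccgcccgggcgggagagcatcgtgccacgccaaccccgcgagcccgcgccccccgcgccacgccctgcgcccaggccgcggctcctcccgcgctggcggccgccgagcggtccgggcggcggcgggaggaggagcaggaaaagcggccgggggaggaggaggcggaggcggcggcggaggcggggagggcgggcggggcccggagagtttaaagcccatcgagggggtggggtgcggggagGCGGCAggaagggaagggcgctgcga
Grb10 downstream promoter (chr11:12027922-12028221): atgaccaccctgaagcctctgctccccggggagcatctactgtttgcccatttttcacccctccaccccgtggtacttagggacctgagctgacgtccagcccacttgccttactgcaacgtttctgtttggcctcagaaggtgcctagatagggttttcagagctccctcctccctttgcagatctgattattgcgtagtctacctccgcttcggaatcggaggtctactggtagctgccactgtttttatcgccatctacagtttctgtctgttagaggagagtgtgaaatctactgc
Ddc upstream promoter (chr11:11898095-11898394): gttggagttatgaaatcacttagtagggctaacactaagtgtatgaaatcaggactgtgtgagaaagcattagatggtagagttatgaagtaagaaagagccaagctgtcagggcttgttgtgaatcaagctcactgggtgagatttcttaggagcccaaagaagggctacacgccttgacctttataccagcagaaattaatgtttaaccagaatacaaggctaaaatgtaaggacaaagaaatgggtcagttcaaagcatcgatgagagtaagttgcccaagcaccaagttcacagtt
Ddc downstream promoter (chr11:11890359-11890658): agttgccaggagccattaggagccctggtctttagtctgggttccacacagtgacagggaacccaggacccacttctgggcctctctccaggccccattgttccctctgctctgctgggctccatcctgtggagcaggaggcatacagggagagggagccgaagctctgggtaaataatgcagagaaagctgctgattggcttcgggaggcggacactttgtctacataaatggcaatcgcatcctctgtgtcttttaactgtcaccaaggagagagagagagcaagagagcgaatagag

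The upstream Grb10 promoter held 45 CpG sites, more than 98.1% of the 32851 RefSeq promoters of that length, and 80.0% of its bases were G or C. The downstream Grb10 promoter, 9.45 kb away, held 9 CpG sites. The Ddc promoters held 2 and 5, against a median of 7 over all promoters. Cobl also had a CpG-rich promoter with 42 sites and another with 0. The motif was present once, in the upstream Grb10 promoter at bases 275 to 280 of the window, as the reverse complement, and in none of the other 5 promoters of the genes. It was found on either strand in 11.6% of all promoters. A match in these letters describes the window and does not show binding. Whether any of these windows lies in the methylated control region of Grb10 was not determined. The tables give 1 value per gene, so the reads cannot be assigned to either promoter.

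The libraries held between 26801865 reads (E14 wild type) and 66849394 reads (JB1 Zfp57-/-) in listed genes, which was 53.1% to 53.7% of the scaling total in E14 and 68.6% to 68.9% in JB1. Each line has its own table, and levels set across the lines therefore depend on that share. The targeted gene, Zfp57, was lower in both knockout libraries, at 134.9 RPM against 51.8 RPM in E14 and at 796 RPM against 42.9 RPM in JB1. The values are per gene and do not show which part of it was deleted. All 6 stem cell markers were at 57.2 RPM or more in every library. They summed to 2454 and 2053 RPM in E14, then to 3668 and 2977 RPM in JB1, and the single markers were not constant. Nanog was 228 and 137 RPM in E14, with 693 and 362 RPM in JB1. Sox2 was 181 and 154 RPM in E14, with 625 and 393 RPM in JB1. Zfp42 was 736 and 587 RPM in E14, with 67.6 and 57.2 RPM in JB1. All 6 were lower in the E14 knockout library, while Pou5f1 and Tdgf1 were slightly higher in the JB1 knockout library.

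In JB1, Grb10 was far lower, Ddc was higher and Cobl was slightly lower in the knockout library. In E14 the directions were the same and the distances smaller. At least 2-fold differences, on the log2(RPM + 1) scale, were seen in JB1 for 2 of the 3 genes, Grb10 lower and Ddc higher, where 4.08% of all 13132 genes at 1 RPM or more passed that fold (2.5% higher and 1.58% lower). In E14 none of the 3 passed it, against 1.22% of 12276 genes (0.953% higher and 0.269% lower). Since the genes were chosen on this contrast, nothing is read from those shares. The 2 lines are not replicates of a group, no group has a second library, and the intervals below cover counting error only. In bulk RNA, fewer cells of a type and less RNA per cell cannot be told apart.

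**Figure D1:**
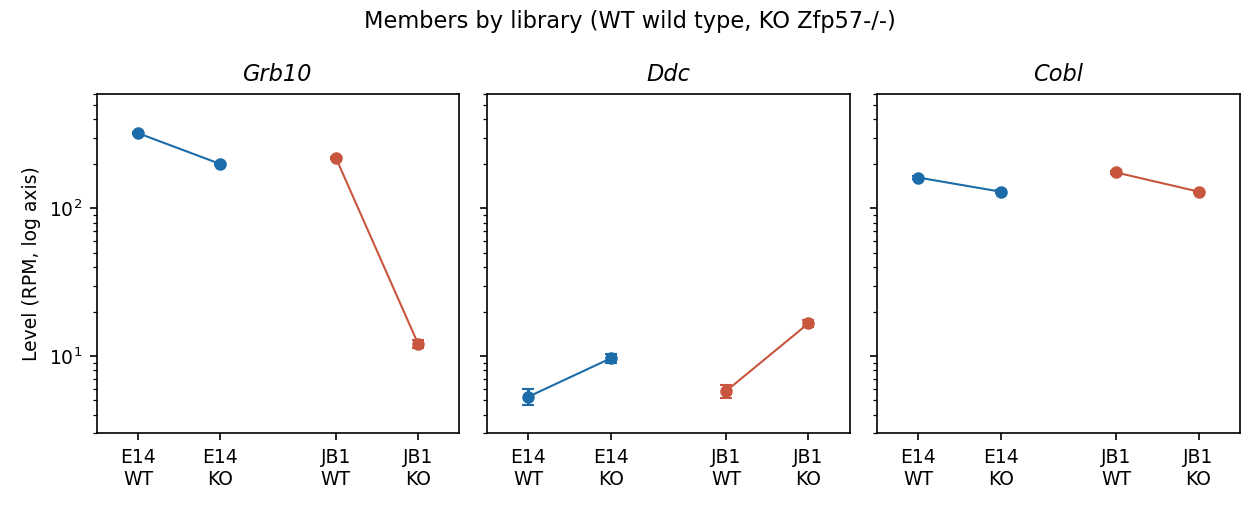
Level of each gene in RPM (log axis) in the 4 libraries, with blue points for E14 and red points for JB1; bars are exact Poisson 95% intervals of the read count. Grb10 was 220.3 and 12.0 RPM in the JB1 libraries, Ddc was higher in both knockout libraries and Cobl lay at 129.7 and 129.8 RPM in the E14 and JB1 knockout libraries.

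Grb10 (chromosome 11, 11830511 to 11938686, minus strand, mm9) was 323 RPM (16317 reads) and 199.6 RPM (14110 reads) in the E14 libraries. The JB1 wild-type library held 220.3 RPM (15244 reads) and the JB1 knockout library 12.0 RPM (1168 reads). The JB1 knockout library stood alone at the low end, and the other 3 libraries were at 199.6 RPM or more. The JB1 knockout was 18.3-fold lower than its wild type (95% interval 17.2 to 19.4) and the E14 knockout 1.62-fold lower (1.58 to 1.66). The reduction in JB1 was thus 11.3 times that in E14, which was not tested with 1 library on each side. The corresponding values of Zfp57 itself were 18.5-fold (JB1) and 2.60-fold (E14), and the part of that in the Grb10 difference was not tested.

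Among 13132 genes in JB1, Grb10 had the rank 2 from the lowest log2 difference, and the gene below it was Zfp57. In E14 its rank was 164 of 12276, with 1.33% of genes lower. Over the 11890 genes at 1 RPM or more in both lines, Grb10 and Zfp57 were the only genes at least as low as Grb10 in both (−0.69 in E14 and −4.08 in JB1). By the distance between pairs of differences over the 2 lines, Zfp57 was also the gene most like Grb10 (distance 0.68). The next were the early response gene Fos (1.33), the calcium channel gene Itpr2 (1.44), the hedgehog inhibitor gene Hhip (1.45) and the ATP-gated channel gene P2rx3 (1.63). These 4 were low mainly in JB1, where their differences lay between −3.04 and −2.71, while in E14 they lay between −0.28 and 0.41. Grb10, Ddc and Cobl were chosen with these differences known, and Zfp57 is the targeted gene. The ranks and distances here and below are therefore a description, and nothing is read from them.

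**Figure D2:**
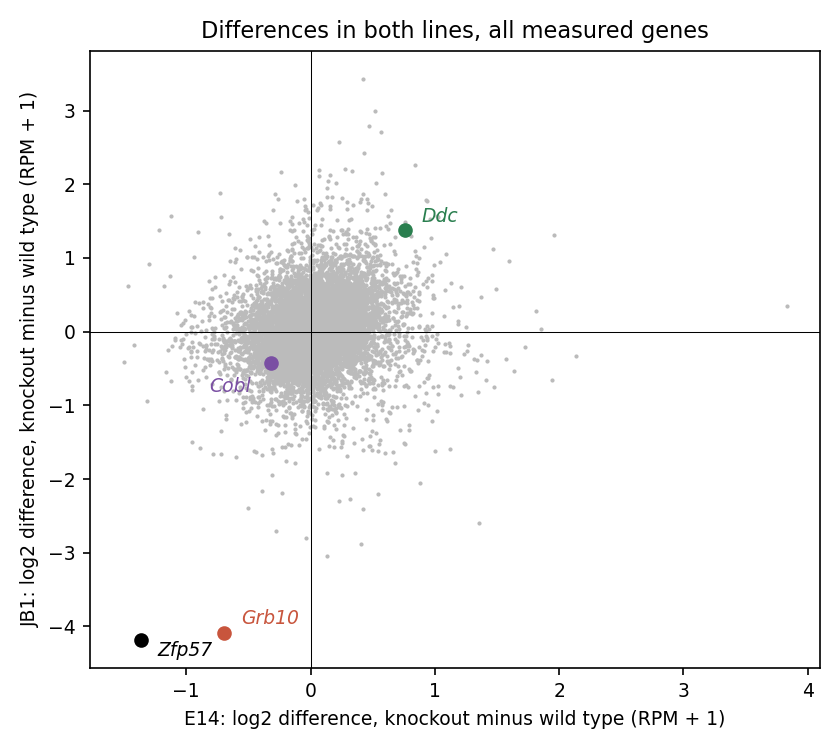
Each grey point is 1 of 11890 genes at 1 RPM or more in both lines, with the log2 difference of knockout minus wild type (RPM + 1) in E14 on the horizontal axis and in JB1 on the vertical axis. Grb10 and Zfp57 lie apart at the lower left, Ddc lies at the upper right (0.76 and 1.38) and Cobl inside the cloud.

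The order of the Grb10 levels across lines depended on the scaling. In RPM, JB1 wild type (220.3) lay above the E14 knockout (199.6). Per 1000000 reads in listed genes, the E14 knockout (372) lay above JB1 wild type (321), with E14 wild type at 609 and the JB1 knockout at 17.5. On either scale E14 wild type was the highest and the JB1 knockout the lowest.

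Ddc (11714104 to 11798047, minus strand) lies 32.5 kb beyond the 3′ end of Grb10. It was 5.29 RPM (267 reads) and 9.63 RPM (681 reads) in the E14 libraries. The JB1 libraries held 5.78 RPM (400 reads) and 16.6 RPM (1612 reads). Both wild-type libraries were low, with counting intervals that overlapped (4.67 to 5.96 and 5.23 to 6.38 RPM), and both knockout libraries were above them. Per 1000000 reads in listed genes the order from the lowest was JB1 wild type (8.43), E14 wild type (9.96), the E14 knockout (17.9) and the JB1 knockout (24.1). Ddc was 1.82-fold higher in the E14 knockout (95% interval 1.58 to 2.11) and 2.88-fold higher in the JB1 knockout (2.58 to 3.22).

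In the order of differences from the highest, Ddc had the rank 116 of 13132 in JB1 and 258 of 12276 in E14. Over both lines, 8 of 11890 genes, Ddc included, were at least as high as Ddc in both. The genes most like it were Slc5a11, a sodium-coupled sugar transporter gene (distance 0.06), Galk1, which encodes galactokinase and also lies on chromosome 11 (0.10), Aard (0.11), the aldo-keto reductase gene Akr1b8 (0.12) and Srcrb4d (0.13). Slc5a11 was 3.80 and 7.12 RPM in E14 (1.07 and 4.15 RPM in JB1).

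A transcript listed inside Ddc on the opposite strand, 1700042O10Rik (11768126 to 11785324, plus strand), was also counted. It was named after its values were seen. It had 12 and 29 reads in E14, and 8 and 51 reads in JB1. It was 4.55-fold higher in the JB1 knockout (95% interval 2.14 to 11.1), and the E14 interval (0.854 to 3.71) included no difference. The kit keeps strand, but the labels do not say whether the counting used it, so reads of this transcript and of Ddc may not be separate.

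Cobl (12136611 to 12364963, minus strand) lies 197.9 kb upstream of Grb10. It was 161.7 RPM (8163 reads) and 129.7 RPM (9169 reads) in the E14 libraries. The JB1 libraries held 175.1 RPM (12117 reads) and 129.8 RPM (12594 reads). The knockout libraries lay at the same RPM within their counting intervals, but per 1000000 reads in listed genes they stood at 242 (E14) and 188 (JB1). Each was below its wild type. Cobl was 1.25-fold lower in E14 (95% interval 1.21 to 1.28) and 1.35-fold lower in JB1 (1.32 to 1.38).

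Differences of that size were common. In E14 9.08% of genes were lower than Cobl in log2 difference, and in JB1 12.1%, and 218 of 11890 genes were at least as low in both lines. The genes most like Cobl were the kinase gene Dyrk3, Tapt1, Lad1, Tmc4 and Ralgapa1, all within a distance of 0.017. Cobl was the gene of the 3 whose lines differed least. The log2 ratio without an added 1, JB1 minus E14, was −0.11 for Cobl, 0.66 for Ddc and −3.50 for Grb10.

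Ratios between genes within a library do not depend on its scaling. For 100 reads of Grb10 there were 1.64 and 4.83 reads of Ddc in E14, a 2.95-fold difference. The JB1 libraries had 2.62 and 138.0, a 52.6-fold difference, and Ddc had more reads than Grb10 only in the JB1 knockout library. Per kilobase of exon (5.13 kb for Grb10, 2.09 kb for Ddc and 5.80 kb for Cobl in GENCODE M21), Grb10 led in 3 libraries. Its level was 63.0 and 38.9 RPM per kb in E14, and 42.9 and 2.35 RPM per kb in JB1. In the JB1 knockout it was the lowest of the 3, with Ddc at 7.94 and Cobl at 22.4 RPM per kb. In the wild types Cobl was 27.9 (E14) and 30.2 (JB1) RPM per kb, and Ddc was 2.53 and 2.76.

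The other genes around Grb10 gave few values along the chromosome. Within 1 Mb of its ends 15 genes were listed, the 3 members included. At 1 RPM or more there were 5 in E14 and 4 in JB1, and only Grb10 and Ddc were at least 2-fold different, in JB1. On the Cobl side the only other genes listed were Gm12002, without reads, and Gm17624, with at most 2 reads in a library. How far the differences reach on that side is therefore not shown. Fignl1, an AAA ATPase gene of DNA repair (11687434 to 11708965), is the next expressed gene beyond Ddc. It was 65.8 and 67.7 RPM in E14 (88.4 and 92.1 RPM in JB1). Its knockout libraries were 1.03-fold (95% interval 0.983 to 1.07) and 1.04-fold (1.01 to 1.08) higher.

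Relative to 100 reads of Fignl1, Grb10 was 491 and 295 reads in E14, and 249 and 13.1 reads in JB1. Ddc was 8.03 and 14.2 in E14 and 6.54 and 18.04 in JB1. The gene 4930512M02Rik was 1.70 and 1.37 RPM in E14 and under 1 RPM in both JB1 libraries. Ikzf1, which encodes the lymphoid factor Ikaros and lies next to Fignl1, stayed below 1 RPM in all 4 libraries and was named after its values were seen. Of the 15 genes, 4 had no reads in E14 and 5 had none in JB1.

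**Figure D3:**
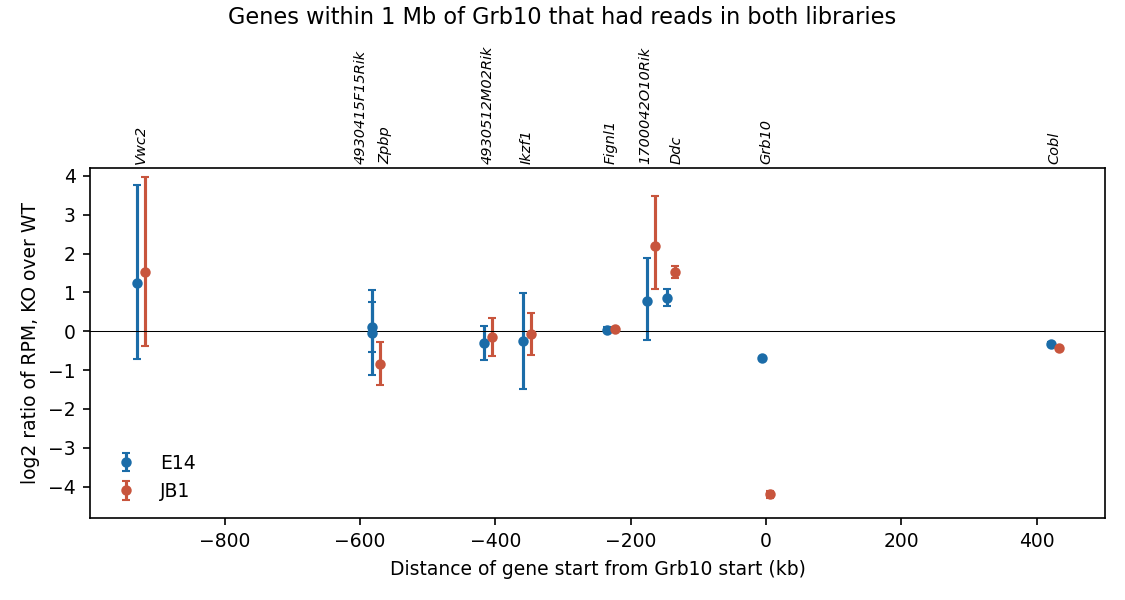
Log2 ratio of RPM, knockout over wild type, of each gene within 1 Mb of Grb10 that had reads in both libraries, by the distance of its start from the start of Grb10 in kb; bars are exact binomial 95% intervals, blue E14 and red JB1. Fignl1 lies near 0 (0.04 in E14 and 0.06 in JB1), Ddc above and Grb10 and Cobl below. In JB1, Zpbp (−0.84, 65 and 51 reads) and 1700042O10Rik (2.19, 8 and 51 reads), both under 1 RPM, also had intervals that excluded 0. Their E14 intervals included 0.

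Other expressed genes within 5 Mb of Grb10 had a median log2 difference of 0.21 in E14 (11 genes, from −0.39 to 0.64) and of 0.11 in JB1 (13 genes, from −1.10 to 1.05), without the members. Over chromosome 11 the medians were 0.05 in each line, with 1004 and 1080 genes. Grb10 lay below all of these genes within 5 Mb in both lines and Ddc above all of them. Commd1, an imprinted gene farther along the chromosome, was 60.8 and 59.7 RPM in E14, with 68.9 and 56.8 RPM in JB1. Zrsr1, the paternally expressed retrogene inside it, is listed under 2 overlapping entries whose reads are uncertain. Those entries were 1.24-fold higher in E14 each and 1.06- and 1.00-fold lower in JB1.

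Igf2r, the receptor that clears IGF2, is like Grb10 a maternally expressed growth inhibitor with a control region methylated in the egg. It was 221 and 268 RPM in E14, with 239 and 119.8 RPM in JB1. It was 2.00-fold lower in the JB1 knockout, where Grb10 was 18.3-fold lower, and 1.21-fold higher in the E14 knockout, where Grb10 was lower. These differences between the genes have no replicates and were not tested.

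The insulin and IGF pathway, in which GRB10 acts, went both ways. The 2-fold counts of this list and the next ones are on the log2(RPM + 1) scale. Of 46 measured genes in E14, 27 were higher and 19 lower, none at least 2-fold, where 53.5% of all genes were higher and 0.953% at least 2-fold higher. In JB1, 19 of 49 were higher and 30 lower, where 51.5% of all genes were higher. Only Pik3cd was at least 2-fold higher in JB1, 1 of 49 genes against 2.5% of all genes. As plain RPM ratios, the low Igfbp4, a gene of an IGF-binding protein (1.20 and 2.77 RPM, 2.31-fold), and Grb14 below were also past 2-fold higher in JB1. The list medians were 0.06 in E14 and −0.10 in JB1, beside medians of 0.02 and 0.01 over all measured genes. Among ligands and receptors, Igf2 was 1.11 and 0.665 RPM in E14, with 5.20 and 4.08 RPM in JB1. The receptor Igf1r was 10.8 and 6.65 RPM in E14, with 17.4 and 15.1 RPM in JB1, and Insr was 11.8 and 10.4 RPM in E14, with 28.5 and 20.9 RPM in JB1. These 3 were lower in both knockout libraries, and Igf2 in E14 rested on 56 and 47 reads. Igf2r, also in this list, was higher in the E14 knockout and lower in the JB1 knockout, as given above.

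Pik3cd, a catalytic subunit of phosphoinositide 3-kinase, was at 6.16 and 16.98 RPM in JB1. The receptor substrates Irs1 (3.61 and 2.41 RPM) and Irs2 (13.8 and 10.7 RPM) were lower in JB1. In E14, Irs2 was 9.85 and 12.7 RPM and Irs1 stayed below 1 RPM. Of the partners of GRB10, the ubiquitin ligase Nedd4 was 997 and 1049 RPM in E14, with 1051 and 1014 RPM in JB1. The GYF-domain genes Gigyf1 and Gigyf2 were 1.06- and 1.09-fold higher in E14 and 1.36- and 1.34-fold lower in JB1.

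The close relatives of Grb10 were at lower levels in the wild types. Per kilobase of exon, Grb10 was 24.7 times Grb7 in E14 wild type and 9.14 times Grb7 in JB1 wild type. In the JB1 knockout Grb7 was the higher of the pair, by 2.07 times per kilobase. Grb7 itself was 6.12 and 7.12 RPM in E14, with 11.3 and 11.7 RPM in JB1. Grb14 was 0.297 and 0.467 RPM in E14, with 0.694 and 1.67 RPM in JB1, which was 1.57- and 2.41-fold higher in the knockout libraries at a low level.

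Of the aromatic amine pathway, in which DDC acts, most genes were under 1 RPM, with 8 of 22 listed genes measured in E14 and 9 in JB1. The medians were 0.35 in E14 and 0.10 in JB1, beside medians of 0.02 and 0.01 over all measured genes. Of the measured genes, 5 of 8 were higher in E14 and 5 of 9 in JB1, where 53.5% and 51.5% of all genes were higher. The hydroxylases that act before DDC were under 1 RPM in all 4 libraries. Th, tyrosine hydroxylase, did not exceed 0.340 RPM (33 reads) in any library, and Tph1, tryptophan hydroxylase, had between 0 and 11 reads. The other tryptophan hydroxylase gene, Tph2, was 0.396 and 0.651 RPM in E14, with 0.405 and 0.753 RPM in JB1. Pcbd1, which regenerates their cofactor, was 0.780 and 2.74 RPM in JB1 and the only gene of the list at least 2-fold higher on the log2(RPM + 1) scale. That was 1 of 9 measured genes in JB1, against 2.5% of all genes. As a plain RPM ratio, the amine transporter gene Slc18a1 was 2.01-fold higher in E14 (2.20 and 4.41 RPM) and 1.45-fold lower in JB1. Gch1, which starts synthesis of that cofactor, was 2.91 and 1.63 RPM in E14, with 1.45 and 1.41 RPM in JB1. Maoa, which degrades the amines, was 31.2 and 24.2 RPM in E14, with 22.4 and 21.0 RPM in JB1.

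Actin nucleation genes, the family in which COBL works, had medians of 0.02 in E14 (31 measured, 17 higher) and 0.14 in JB1 (32 measured, 20 higher), where 53.5% and 51.5% of all genes were higher. In JB1, 2 of the 32 were at least 2-fold higher, against 2.5% of all genes. These were Pacsin1, a syndapin gene of a family that binds COBL (2.83 and 10.03 RPM), and the cytoplasmic actin gene Actg1 (371 and 752 RPM). As a plain RPM ratio, the leiomodin gene Lmod1 was also past 2-fold, at 3.89-fold higher and a low level (0.318 and 1.24 RPM). Pacsin2 was 68.4 and 74.9 RPM in E14, with 86.7 and 82.6 RPM in JB1, and Pacsin3 stayed within 1.03-fold in both lines. Cobll1, the paralog of Cobl, was 1.05 and 1.39 RPM in E14, with 2.80 and 2.60 RPM in JB1.

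**Figure D4:**
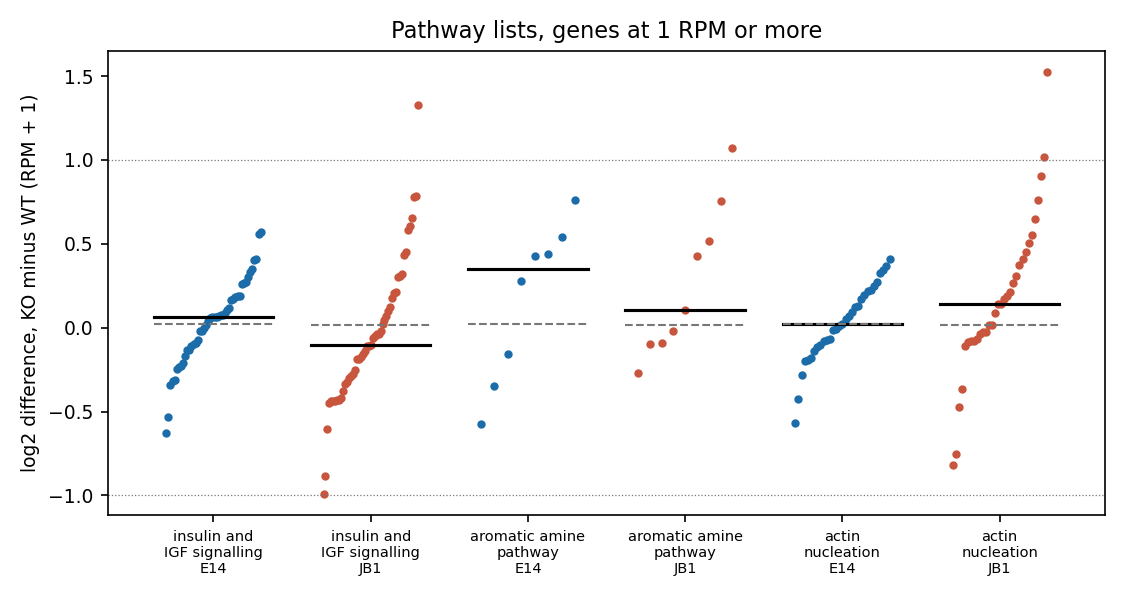
Log2 difference of knockout minus wild type (RPM + 1) of each measured gene of the 3 pathway lists, blue for E14 and red for JB1; black lines are list medians, dashed grey lines the median of all measured genes, dotted lines 2-fold. The genes past 2-fold are Pik3cd, Pcbd1, Pacsin1 and Actg1, all higher in JB1.

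Markers of other cell types were mostly low but not constant. The 6 neuron markers summed to 59.9 and 65.7 RPM in E14, then to 115.9 and 169.1 RPM in JB1. Most of that was Stmn2, which was not low (54.6 and 60.3 RPM in E14, 107.8 and 161.2 RPM in JB1). In JB1, Elavl3 (2.30 and 3.35 RPM) and Rbfox3 (1.47 and 1.77 RPM) were higher and Neurod1 (3.83 and 2.52 RPM) was lower. Snap25 and Syt1 stayed below 0.4 RPM and were lower in the JB1 knockout. The 9 markers of primitive and visceral endoderm summed to 14.98 and 12.7 RPM in E14, then to 37.0 and 51.6 RPM in JB1, with Afp and Ttr at 0 to 6 reads. Within that list, Cubn (2.43 and 8.89 RPM) and Dab2 (20.2 and 29.6 RPM) were higher in the JB1 knockout and Gata4 (6.10 and 2.97 RPM) was lower. Gata6 (1.26 and 2.31 RPM) and Sox17 (0.824 and 1.25 RPM) were also higher in the JB1 knockout, at low levels. The 6 mesoderm and heart markers summed to 1.58 to 5.99 RPM, the 6 trophoblast markers to 3.35 to 7.69 RPM with Tpbpa at 0, and the 6 fibroblast markers to 1.47 to 13.5 RPM with Dcn at 0. Of the fibroblast markers, Thy1 was 3.61 and 7.95 RPM and Col1a1 3.67 and 5.19 RPM in JB1. Their part in the differences of Grb10, Ddc and Cobl was not tested.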

How the data were processed

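The submitters' processing notes name CASAVA 1.8.2, cutadapt, TopHat2 2.0.8b and the build mm9. The counting tool, its strand setting and the annotation are not stated in the sources at hand. The authors deposited log2 values of RPM, 1 table per line, not corrected for gene length. In every library 0.9 × 2^(value − lowest value) was whole for 100% of genes with reads (relative tolerance 0.0001), so reads were recovered from the deposited values and genes without reads set to 0. Differences are log2((knockout RPM + 1)/(wild-type RPM + 1)), over genes at 1 RPM or more in either library of the line. Fold values are ratios of RPM without the added 1, with exact conditional binomial (Clopper-Pearson) 95% intervals. These and the Poisson intervals cover counting error only, and reads may be PCR copies. A gene at 1 RPM had 50.5 to 97.0 reads, and a count of 0 allowed up to 0.0309 to 0.0594 RPM (3 reads).

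With 1 library per group and genes chosen on the contrast, no test was run. Computations used Python 3.11.15, pandas 2.3.3 and scipy 1.17.1, and the intervals were tested on simulated data. Members, lists and window were chosen with earlier results of these data known. Genes named are the members, Zfp57, expressed genes within 1 Mb, list genes past 2-fold or in a fixed set, 3 other imprinted genes and the 5 genes nearest to each member by Euclidean distance of the pair of differences (that rule had been set for Grb10 and was extended to Ddc and Cobl afterwards). Single cell type markers and genes under 1 RPM within 1 Mb were named outside these rules. Older symbols were matched through RefSeq synonyms. Promoters are from RefSeq, exon lengths from GENCODE M21. Alternatives were other pseudocounts, filters and scalings.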

Additional observations from a re-analysis of the deposited data

Results flagged for a closer look

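Of the named genes, 38 at 1 RPM or more in both lines were compared, without the cell type markers and Slc18a1. Of these 38, 6 went opposite ways in the 2 lines, with counting intervals that excluded no difference in each. The share of all 11890 genes that meet this rule was not counted, so nothing is read from the 6. High read counts make the rule easier to meet, and Nedd4 had at least 50321 reads in each library. The difference between the lines was not tested. The log2 differences on the RPM + 1 scale, E14 first, were 0.27 and −0.99 for Igf2r, 0.41 and −2.89 for P2rx3 and 0.33 and −0.34 for Irs2. For Gigyf2 they were 0.12 and −0.42, for Nedd4 0.07 and −0.05, and for Pacsin2 0.13 and −0.07. P2rx3 had been named for its closeness to Grb10, which was low in the JB1 knockout. Outside the 38, Slc18a1 (0.76 and −0.27), Dab2 (−0.29 and 0.53), Tdgf1 (−0.11 and 0.14) and Pou5f1 (−0.12 and 0.02) met the same rule. Grb10, Ddc and Cobl went the same way in both lines.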

How the results depend on the processing

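No alternative turned a direction of Grb10, Ddc or Cobl. Grb10 ranged from −0.73 to −0.68 in E14 and from −4.19 to −3.72 in JB1, Ddc from 0.51 to 0.86 and from 1.00 to 1.52, and Cobl from −0.35 to −0.31 and from −0.48 to −0.42. Values moved beyond counting error with a pseudocount of 5 RPM (Ddc 0.51 in E14 and 1.00 in JB1, Grb10 −3.72 in JB1), with no pseudocount (Grb10 −4.19 in JB1) and with a trimmed mean of log ratios (Grb10 −0.73 in E14, Cobl −0.48 in JB1). Genes at least 2-fold higher and lower in E14 numbered 183 and 50 with a pseudocount of 0.5 RPM, 44 and 6 with 5 RPM, and 176 and 54 when scaled to listed genes, against 117 and 33. In JB1 a pseudocount of 5 RPM left 111 and 83 of 328 and 208. With that pseudocount 0 insulin and IGF genes, 0 aromatic amine genes and 1 actin nucleation gene passed 2-fold upward in JB1, and the trimmed mean also left 1 actin gene. Each of the 3 rescalings put 1 insulin and IGF gene at least 2-fold lower in JB1. The aromatic amine median was 0.10 in E14 with no filter, and in JB1 0.26 (0 genes at least 2-fold higher) with a filter of 5 RPM and 0.25 when scaled to listed genes. The cause of these changes was not tested. For scaling to listed genes, the scaling was not separated from the lower pseudocount and filter. The other 177 of 202 recomputed values stayed within their limits. For the members these limits were the half-width of the counting interval, and for list medians the median half-width of the list genes. For counts of genes the limit was a fixed fold, not counting error. It took in 475 and 278 genes in JB1 with a pseudocount of 0.5 RPM, and 3 actin nucleation genes at least 2-fold higher against 2. A fit of genotype with line as a block, which the 4 libraries would allow, was not run, because the genes were chosen on that contrast.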
